A study of Mus musculus with 8 samples.

Results

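Aminoacyl-tRNA synthetases are the enzymes that load each tRNA with its amino acid, and their genes were followed here through the stimulation of mouse T cells. Members were the genes whose probe set carried a single symbol of the synthetase family in the array annotation, and of several probe sets for a gene the brightest on average was kept. This gave 34 of the 22180 genes measured by name, of which 18 encode cytosolic enzymes and 16 encode mitochondrial enzymes, the latter being those whose symbol ends in 2. The family is represented by Cars, Eprs, Farsa, Farsb, Gars, Hars, Iars, Kars, Lars, Mars1, Nars, Qars, Rars, Sars, Tars, Vars, Wars and Yars in the cytosol, and by Aars2, Cars2, Ears2, Fars2, Hars2, Iars2, Lars2, Mars2, Nars2, Pars2, Rars2, Sars2, Tars2, Vars2, Wars2 and Yars2 in the mitochondrion. The cytosolic alanyl-tRNA synthetase shares its probe set with another gene and was not named.

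RNA came from CD3 T cells of C57BL/6J mice, purified by negative selection from lymph nodes and spleen, and the labels give no age. Each of 8 groups was measured on 1 array: naive cells in steady state (0 h) and naive cells after 24 h, and at either 3 h or 24 h cells given concanavalin A (ConA), poly-L-lysine (PLL) or both agents (ConA+PLL). ConA is a plant lectin that crosslinks sugar-bearing proteins on the T cell surface, and PLL is a positively charged polymer that holds cells on a coated plate. Stimulation lasted 3 h, after which the cells of the 24 h groups were washed and kept in culture. The mice that contributed to each array are not stated.

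Each synthetase recognises its own amino acid and its own tRNAs, joins the pair with energy from ATP and so fixes the meaning of the genetic code. Cytosolic and mitochondrial protein synthesis use separate tRNAs, and for most amino acids the mitochondrial enzyme has a nuclear gene of its own. Gars and Kars are exceptions, since each gene encodes both forms, and Eprs encodes a fused enzyme for glutamate and proline. A resting T cell makes little protein, and its entry into growth after activation is known for a large increase in translation, which consumes charged tRNA.

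With 1 array per group no difference could be set against a replicate, so no test was made and no p-value is given. Values are log2 levels, and a difference of 1 on that scale is a 2-fold difference. A count at 1.5-fold is given beside the share of all genes past the same limit in the same direction, over the 13428 genes with at least 1 value at or above the table's median (3.62). All 34 members passed this filter, and none did so through a few arrays, because the lowest level of any member on any array was 3.94 (Pars2 in naive cells at 0 h). In bulk RNA of this kind, fewer cells of a type and less RNA per cell cannot be told apart.

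Array medians lay between 3.53 and 3.69. The T cell identity of the samples was visible in Cd3e, at 10.08 to 11.10, and the summed level of 7 measured T cell markers lay between 11.97 and 12.76 on the log2 scale, highest on the ConA+PLL array at 24 h. Summed markers of B cells (4 genes, 5.58 to 6.51), monocytes and macrophages (5 genes, 5.58 to 6.06), dendritic cells (4 genes, 5.24 to 5.53) and granulocytes (4 genes, 4.66 to 5.14) were low on every array. The B cell sum was lowest on the ConA+PLL array at 3 h (5.58) and highest on that at 24 h (6.51). NK cell markers (4 genes) summed to 8.55 to 9.81, almost entirely through Klrd1, a receptor also found on T cells, while Klrb1c, Ncr1 and Klre1 stayed at 3.77 or below. The NK sum was 8.55 and 8.78 on the ConA+PLL arrays, against 9.59 and 9.81 on the PLL arrays at 3 h and 24 h, while naive cells at 0 h (8.82) and ConA at 3 h (8.73) lay near the ConA+PLL arrays and naive (9.56) and ConA (9.67) cells at 24 h near the PLL arrays, and the part of these shifts in the synthetase differences was not tested.

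The cytosolic synthetases were higher where ConA and PLL were given together, and the mitochondrial enzymes less so, by a margin that depended on scaling and control. At 3 h the median cytosolic difference of ConA+PLL from naive cells was 0.43, and at 24 h it was 0.50 against naive cells of the same time. The corresponding mitochondrial medians were 0.04 and 0.14. Over all genes passing the filter the medians were -0.06 and 0.08, so the cytosolic group stood apart from the table as a whole and the mitochondrial group lay nearer to it. After each array was centred on its own median, the all-gene median at 24 h moved from 0.08 to -0.06 and the mitochondrial median from 0.14 to -0.00. The cytosolic median moved from 0.50 to 0.36. Centring shifts all genes of an array by the same amount, so it cannot change the gap of 0.37 and is no check on it. Quantile normalization narrowed the gap at 3 h from 0.39 to 0.24, with a mitochondrial median of 0.18, and with naive cells at 0 h as control the gap at 24 h was 0.12, from medians of 0.36 and 0.24.

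**Figure D1:**
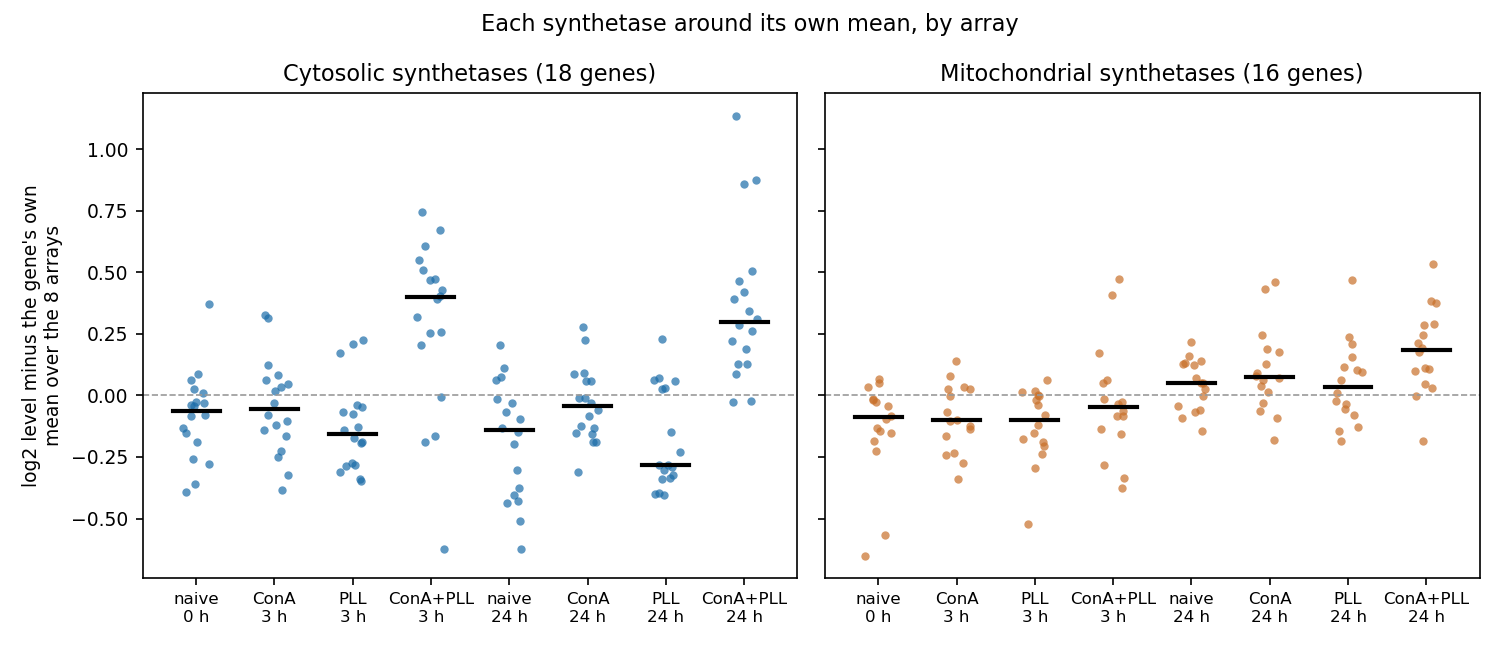
Log2 level of each synthetase minus its own mean over the 8 arrays (vertical axis) by array (horizontal axis), with 18 cytosolic genes on the left and 16 mitochondrial genes on the right. Points are genes and black bars are medians; the cytosolic medians on the ConA+PLL arrays are 0.40 at 3 h and 0.30 at 24 h, and on the other 6 arrays they lie between -0.28 and -0.04.

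All 18 cytosolic members had their highest level on a ConA+PLL array, 11 of them at 3 h and 7 at 24 h. The same was true of 8 of 16 mitochondrial members and of 38.6% of all genes, or 54.5% of the 4614 genes with a mean level of at least 6. Under quantile normalization of the 8 arrays Nars became the exception among the cytosolic genes, leaving 17 of 18. The ConA+PLL array at 24 h exceeded the other arrays of that time for 17 of 18 cytosolic members, with Farsa as the exception, and for 8 of 16 mitochondrial members, against 41.7% of all genes. At 3 h it exceeded the ConA, PLL and 0 h arrays for 15 of 18 cytosolic and 5 of 16 mitochondrial members, against 25.0% of all genes. Qars, Sars and Vars were the cytosolic genes that did not follow this order at 3 h. For the genes with a mean level of at least 6, the share that did was 56.4% at 24 h and 39.1% at 3 h. The mitochondrial count at 3 h depended on scaling and became 11 of 16 under quantile normalization and 9 of 16 after centring, while the cytosolic count became 14 and 16 of 18. At 24 h the mitochondrial count was 8 of 16 under quantile normalization and 5 of 16 after centring, and the cytosolic count was 16 of 18 under each.

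**Figure D2:**
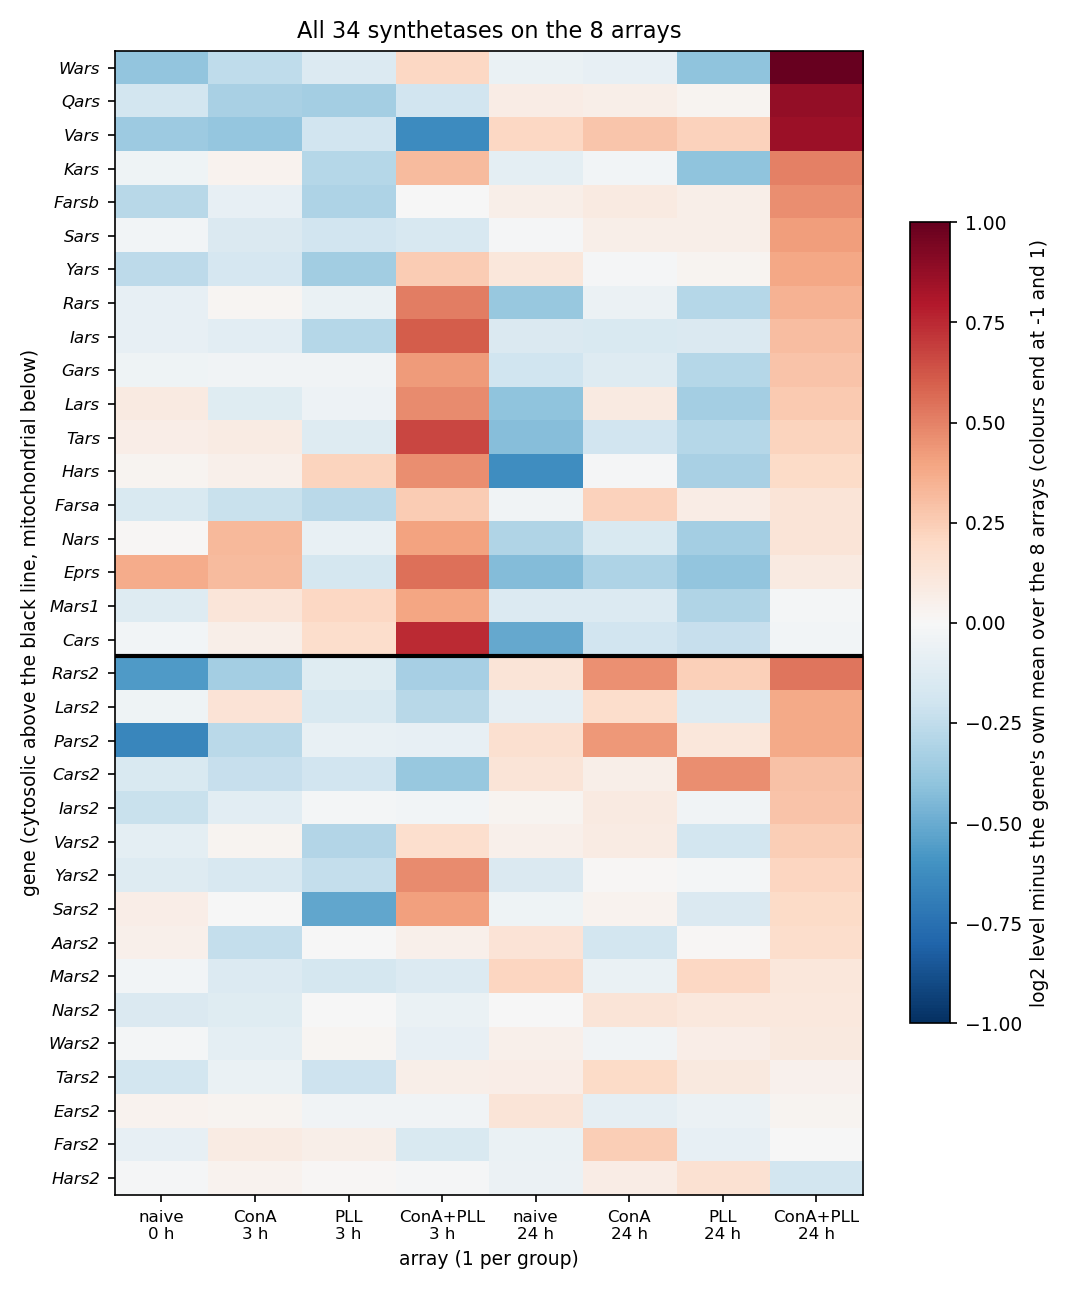
Heat map of the 34 synthetases (rows, cytosolic above the black line, ordered by their value on the ConA+PLL array at 24 h) on the 8 arrays (columns). Colour gives the log2 level minus the gene's own mean over the arrays, and the dark red cells of the cytosolic block lie in the ConA+PLL columns, at 3 h for Cars and Tars and at 24 h for Wars, Qars and Vars.

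Neither agent alone gave a comparable shift. With ConA at 3 h the cytosolic median was 0.02 and the mitochondrial median 0.03 against naive cells at 0 h, and 0 of 34 members were 1.5-fold higher, where 2.65% of all genes were. With PLL at 3 h the medians were -0.09 and -0.03, and Sars2 (seryl-tRNA, mitochondrial) was the only member 1.5-fold lower, at -0.59, where 2.88% of all genes were. Culture time and treatment are joined in these comparisons, because the naive control is at 0 h.

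At 24 h the median cytosolic and mitochondrial differences were 0.07 and 0.10 for ConA and 0.01 and -0.01 for PLL, each against naive cells at 24 h. Hars (histidyl-tRNA) was the 1 member at least 1.5-fold higher with ConA, at 0.61, where 1.36% of all genes were, and this value depended on the control array. The Hars level was 7.02 with ConA, 6.70 with PLL and 6.40 in naive cells at 24 h, and 7.05 in naive cells at 0 h. Against the 0 h array the difference was -0.04, but that comparison joins culture time and treatment, and the cause was not tested. In PLL minus naive cells at 24 h, the pair of arrays with the smallest shift, all 34 members lay between -0.34 (Wars) and 0.34 (Cars2).

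The time-matched comparisons set ConA+PLL against each agent given alone. At 3 h the median cytosolic difference was 0.42 from ConA and 0.50 from PLL, and the mitochondrial medians were 0.04 and -0.01. At 24 h the cytosolic medians were 0.40 and 0.50, and the mitochondrial medians 0.14 and 0.13. Centring of the arrays lowered both groups alike, to 0.27 and 0.36 for the cytosolic and to 0.02 and -0.01 for the mitochondrial genes. Quantile normalization gave gaps of 0.24 and 0.31 at 3 h, against 0.38 and 0.51 on the deposited scale, and of 0.18 against PLL at 24 h, from 0.37. The comparisons of 1 time share the ConA+PLL array and are not independent of each other.

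Counts at 1.5-fold were higher for the cytosolic genes on the deposited scale, and at 3 h they depended on scaling. ConA+PLL at 3 h was 1.5-fold above naive cells at 0 h for 5 of 18 cytosolic genes (Cars, Iars, Rars, Tars and Wars) and 1 of 16 mitochondrial genes (Yars2), where 4.63% of all genes were. Against ConA at 3 h the counts were 4 (Cars, Iars, Lars and Tars) and 1 (Yars2), with 3.54% of all genes. Against PLL at 3 h they were 5 (Eprs, Iars, Kars, Tars and Yars) and 2 (Sars2 and Yars2), with 6.09%. Iars, the isoleucyl-tRNA synthetase, and Tars, the threonyl-tRNA synthetase, were therefore past the limit in all 3 comparisons at 3 h, as was Yars2, the mitochondrial tyrosyl-tRNA synthetase. Under quantile normalization the cytosolic and mitochondrial counts were 2 and 2 against naive cells and 2 and 1 against ConA, so the division was lost against naive cells, and they were 5 and 2 against PLL. After centring, 9 cytosolic genes were counted against PLL and 2 mitochondrial genes against naive cells. For these other scalings the share of all genes was not counted, and the shares above belong to the deposited scale.

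At 24 h, 8 of 18 cytosolic genes were 1.5-fold higher with ConA+PLL than in naive cells (Hars, Kars, Lars, Qars, Rars, Tars, Vars and Wars), where 6.7% of all genes were. Against ConA at 24 h 2 of them were, Qars and Wars, with 5.19% of all genes, and against PLL at 24 h 6 were (Kars, Lars, Qars, Rars, Vars and Wars), with 6.58%. Under quantile normalization and after centring alike, the count fell to 3 against naive cells and to 3 against PLL, and it was 2 against ConA. The share of all genes was not counted under these scalings, so it is not known whether that share fell too. None of the 16 mitochondrial genes reached 1.5-fold in these 3 comparisons at 24 h. No member was 1.5-fold lower in any ConA+PLL comparison, where 6.35% (naive), 5.5% (ConA) and 8.7% (PLL) of all genes were at 3 h and 2.57%, 1.95% and 2.21% at 24 h. At 2-fold, Wars at 24 h was the only member past the limit in the 11 comparisons.

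**Figure D3:**
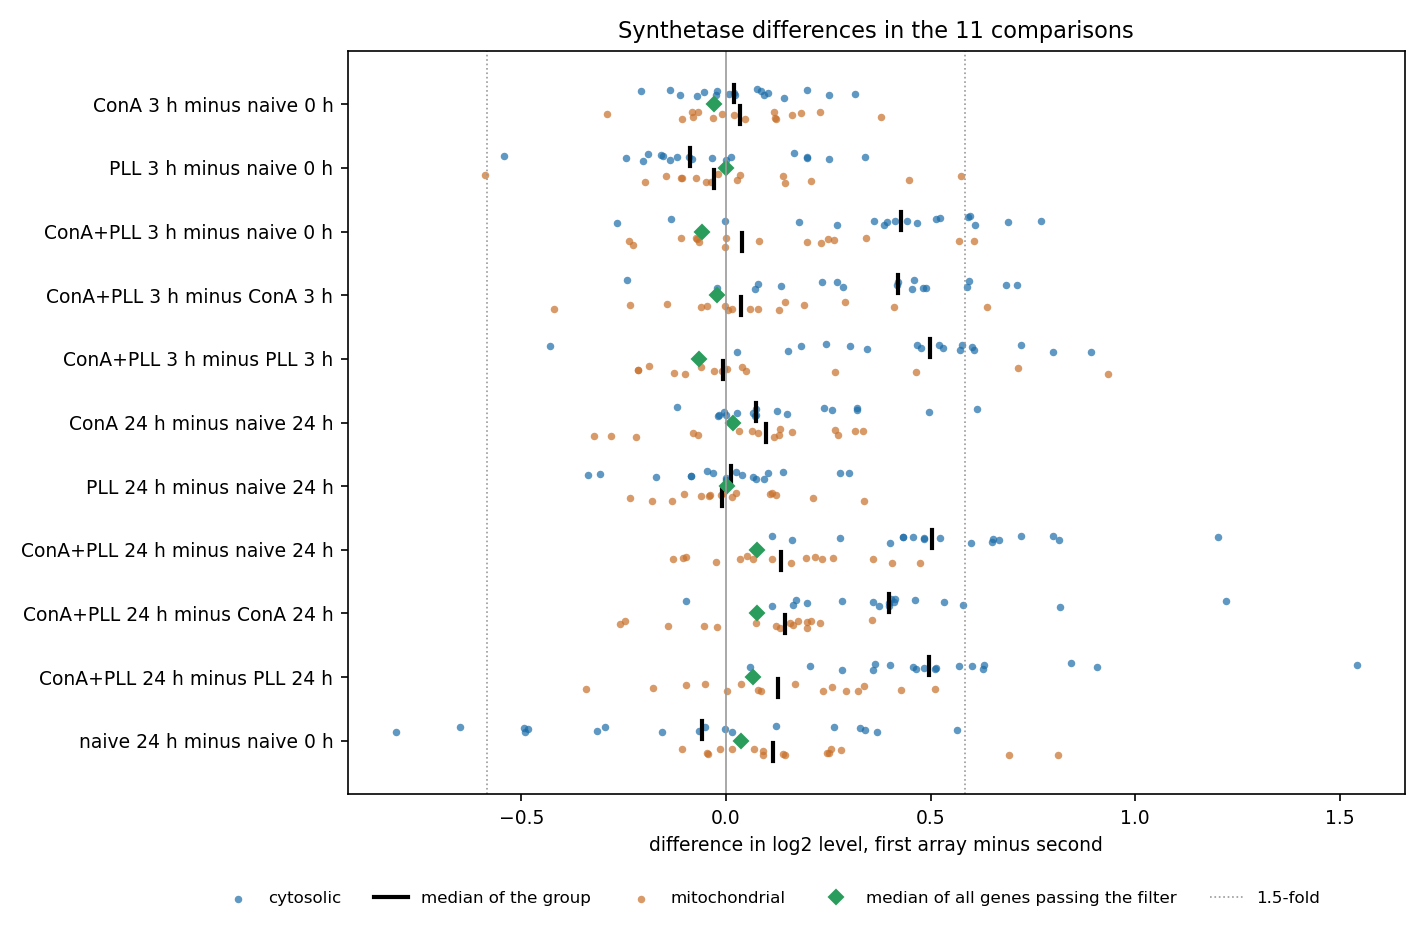
Difference in log2 level (horizontal axis) of each synthetase in the 11 comparisons (rows), with cytosolic genes in blue and mitochondrial genes in orange. Black bars are group medians, green diamonds the median of all 13428 genes passing the filter and dotted lines 1.5-fold; the cytosolic medians lie between 0.40 and 0.50 in the 6 ConA+PLL rows and between -0.09 and 0.07 in the others.

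The effect of ConA was also read separately with and without PLL. On PLL the median ConA difference of the cytosolic genes was 0.50 at 3 h and 0.50 at 24 h, and without PLL it was 0.02 and 0.07. At 3 h these are not alike, because without PLL the control is naive cells at 0 h. That difference also holds culture time, whereas on PLL both arrays are of 3 h. It was larger on PLL for 16 of 18 cytosolic genes at 3 h, all but Mars1 and Vars, where this held for 47.9% of all genes. At 24 h it was larger for 15 of 18, all but Cars, Farsa and Hars, where this held for 59.4% of all genes. Of the mitochondrial genes, 7 of 16 at 3 h and 9 of 16 at 24 h showed the larger difference on PLL.

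Wars, the tryptophanyl-tRNA synthetase, had the widest range of all members. Its log2 level was 6.48 in naive cells at 0 h, 6.62 with ConA, 6.73 with PLL and 7.08 with ConA+PLL at 3 h, and at 24 h it was 6.81 in naive cells, 6.79 with ConA, 6.47 with PLL and 8.01 with ConA+PLL. The ConA+PLL array at 24 h stood far above every other array, and that at 3 h came next. At 24 h the ConA+PLL level was 2.30-fold the naive level, 2.33-fold the ConA level and 2.91-fold the PLL level. WARS is known in human cells as a gene induced by interferon gamma, a cytokine that activated T cells secrete.

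Genes of the interferon gamma response were set beside it. Of 8 measured genes of that list, 6 were at least 1.5-fold higher in ConA+PLL at 24 h than in naive, ConA or PLL cells of that time, with medians of 1.32, 0.91 and 1.13, where 6.7%, 5.19% and 6.58% of all genes were. Against ConA at 24 h, Iigp1 (an interferon-induced GTPase) was 2.15 higher, Igtp 1.61 and Irgm1 1.19 (GTPases of the same family), and Gbp3 (a guanylate-binding protein) 0.94. At 3 h the list gave a median of 0.30 for ConA+PLL minus ConA, with 2 of 8 genes 1.5-fold higher and 3.54% of all genes. The part of interferon gamma in the Wars level was not tested.

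Qars, which charges tRNA with glutamine, showed its difference only on the 24 h array. The Qars level was 6.97 in naive cells at 0 h and 6.84, 6.82 and 6.97 with ConA, PLL and ConA+PLL at 3 h, then 7.24, 7.22, 7.19 and 8.04 in naive, ConA, PLL and ConA+PLL cells at 24 h. The 4 early arrays differed little, and the late ConA+PLL array was 1.74-fold above naive and 1.76-fold above ConA cells.

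Vars, the valyl-tRNA synthetase, had the lowest of its 8 levels with ConA+PLL at 3 h and the highest with ConA+PLL at 24 h. The Vars level was 5.78 in naive cells at 0 h, 5.76 with ConA, 5.95 with PLL and 5.52 with ConA+PLL at 3 h, and 6.35, 6.42, 6.37 and 7.0 in naive, ConA, PLL and ConA+PLL cells at 24 h. It was the only cytosolic member that was more than 0.2 lower with ConA+PLL than in naive cells at 3 h, at -0.27, and at 24 h it was 0.65 higher.

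Sars, the seryl-tRNA synthetase, also peaked on that array, within a narrow range. The Sars level was 8.36 in naive cells at 0 h, 8.24, 8.20 and 8.22 with ConA, PLL and ConA+PLL at 3 h, then 8.37, 8.44, 8.44 and 8.80 in naive, ConA, PLL and ConA+PLL cells at 24 h. The ConA+PLL array at 24 h stood above all the others, which lay close together.

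Cars, the cysteinyl-tRNA synthetase, showed the reverse order of times. The Cars level was 5.01 in naive cells at 0 h, 5.09 with ConA, 5.20 with PLL and 5.78 with ConA+PLL at 3 h, and 4.52, 4.84, 4.80 and 5.01 in naive, ConA, PLL and ConA+PLL cells at 24 h. Its largest difference was 0.77 (1.71-fold) for ConA+PLL against naive cells at 3 h, and at 24 h the ConA+PLL array returned to the 0 h level. Mars1, which charges tRNA with methionine, likewise was 0.52 above naive cells at 3 h and 0.11 at 24 h.

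Farsa and Farsb encode the paired subunits of the cytosolic phenylalanyl-tRNA synthetase, and they differed in size of change at each time. The Farsa level was 5.47 in naive cells at 0 h, 5.40, 5.35 and 5.88 with ConA, PLL and ConA+PLL at 3 h, then 5.59, 5.85, 5.69 and 5.75 in the same order at 24 h. Relative to ConA, Farsa was 0.48 higher with ConA+PLL at 3 h and 0.10 lower at 24 h (a difference of -0.10), whereas Farsb was 0.07 and 0.37 higher. Against naive cells and PLL at 3 h both were higher with ConA+PLL, Farsa by 0.41 and 0.53 and Farsb by 0.27 and 0.30, and at 24 h Farsa was 0.16 and 0.06 and Farsb 0.40 and 0.40 higher.

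Tars, Hars and Iars were high on both ConA+PLL arrays. The Tars level was 6.76 in naive cells at 0 h, 6.78, 6.57 and 7.37 with ConA, PLL and ConA+PLL at 3 h, then 6.27, 6.51, 6.41 and 6.92 in naive, ConA, PLL and ConA+PLL cells at 24 h. The Iars level was 7.21 in naive cells at 0 h, 7.19, 7.01 and 7.90 at 3 h, and 7.14, 7.14, 7.14 and 7.60 at 24 h, in the same order. In Iars the other 6 arrays lay within 0.20 of each other, so both ConA+PLL arrays stood clear of them.

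Hars differed from these in its controls. The Hars level was 7.05 in naive cells at 0 h, 7.08, 7.25 and 7.50 with ConA, PLL and ConA+PLL at 3 h, then 6.40, 7.02, 6.70 and 7.22 in naive, ConA, PLL and ConA+PLL cells at 24 h. The 24 h ConA+PLL array was 1.76-fold above naive cells of that time and 0.20 above ConA.

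**Figure D4:**
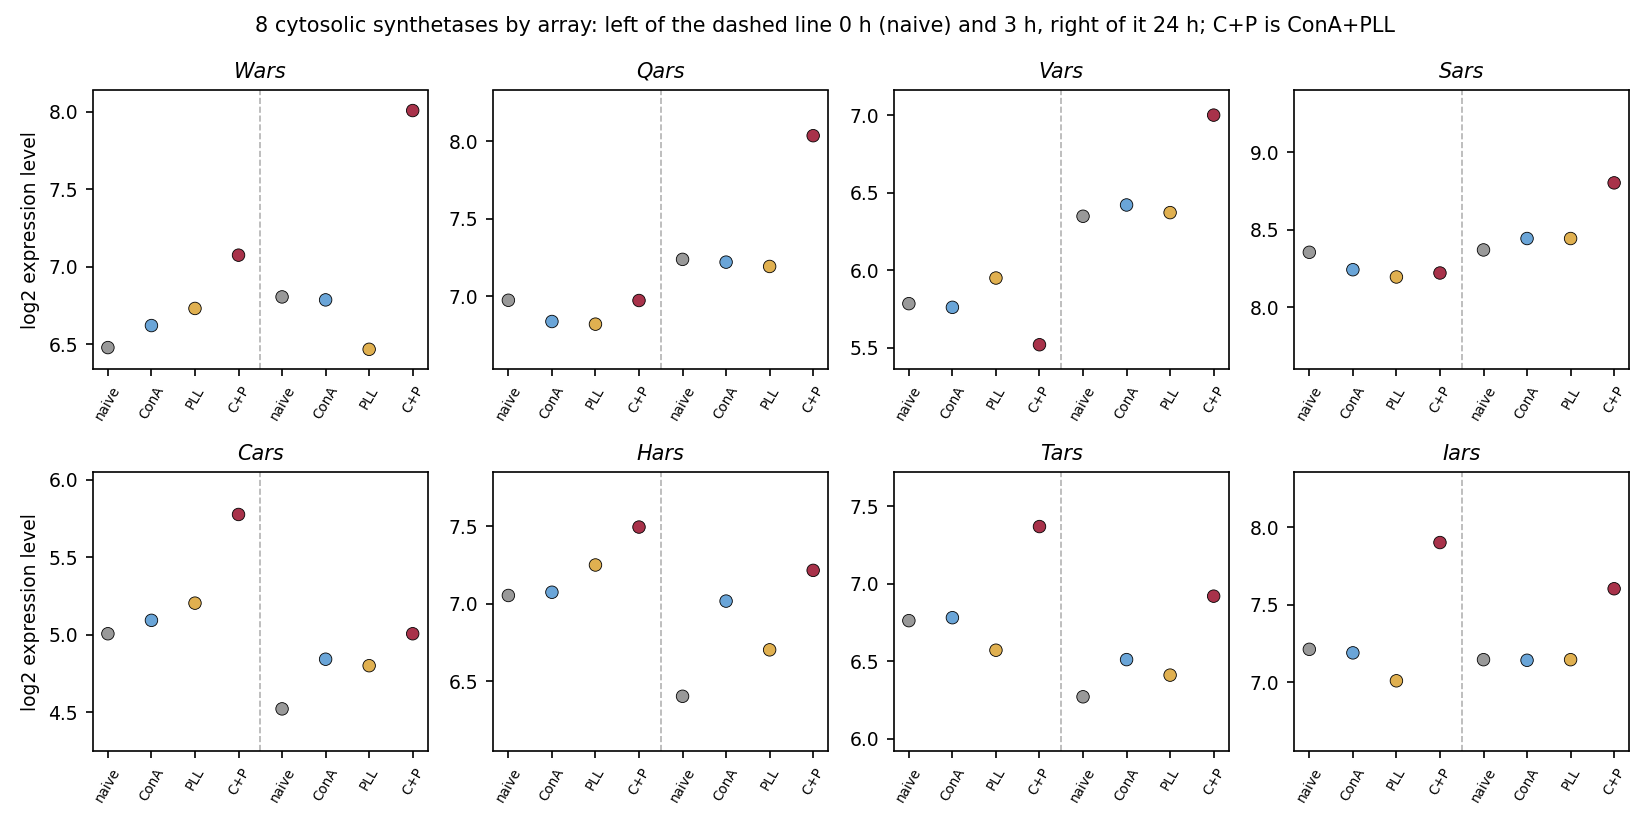
Log2 level (vertical axis, a span of 1.8 in every panel) of 8 cytosolic synthetases on the 8 arrays (horizontal axis). ConA+PLL points are dark red: Wars, Qars, Vars and Sars in the upper row have their highest point at 24 h, and Cars, Hars, Tars and Iars in the lower row have it at 3 h.

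Naive cells were also compared across culture time, and over all 34 members the counts at 1.5-fold were at or below the share of all genes. By compartment, the lower members were 2 of 18 cytosolic genes and the higher members 2 of 16 mitochondrial genes. Each of these lay above the share of all genes but rested on 2 genes. In naive cells at 24 h against naive cells at 0 h the cytosolic median was -0.06 and the mitochondrial median 0.12, and the medians of the mitochondrial group were above naive 0 h on all 4 arrays of 24 h. Eprs was 0.81 lower (a difference of -0.81) and Hars 0.65 lower (-0.65), and these 2 were the only members 1.5-fold lower, where 5.91% of all genes were. Lars and Tars each stood at -0.49 and Cars at -0.48. Pars2 (0.81) and Rars2 (0.69) were the only members 1.5-fold higher, where 9.12% of all genes were. The Eprs level was 7.43 in naive cells at 0 h, 7.38, 6.89 and 7.61 with ConA, PLL and ConA+PLL at 3 h, then 6.62, 6.75, 6.66 and 7.15 in naive, ConA, PLL and ConA+PLL cells at 24 h, so no array of 24 h reached the 0 h level.

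Among the mitochondrial enzymes the widest ranges belonged to Rars2, Pars2, Sars2 and Cars2, and of these Sars2 alone had its highest levels on the ConA+PLL arrays of both times. The Rars2 level (arginyl-tRNA) was 4.35 in naive cells at 0 h, 4.58, 4.80 and 4.58 with ConA, PLL and ConA+PLL at 3 h, then 5.04, 5.37, 5.15 and 5.45 in naive, ConA, PLL and ConA+PLL cells at 24 h. The Pars2 level (prolyl-tRNA) was 3.94 at 0 h, 4.32, 4.52 and 4.51 at 3 h, and 4.75, 5.03, 4.71 and 4.97 at 24 h, in the same order. In both genes the 24 h arrays lay above every earlier array, whatever the treatment.

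The Sars2 level was 5.03 in naive cells at 0 h, 4.96, 4.44 and 5.37 with ConA, PLL and ConA+PLL at 3 h, then 4.92, 5.0, 4.82 and 5.16 in naive, ConA, PLL and ConA+PLL cells at 24 h. Both ConA+PLL arrays lay above the other 6, at 24 h by a small step. Its 1.91-fold difference between ConA+PLL and PLL at 3 h came with a PLL array that was the lowest of the 8. The Cars2 level was 5.49 in naive cells at 0 h, 5.40, 5.45 and 5.26 with ConA, PLL and ConA+PLL at 3 h, then 5.77, 5.70, 6.10 and 5.93 in the same order at 24 h, with its highest value on the PLL array and its lowest on the ConA+PLL array at 3 h, the array on which Cars was highest.

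Wars2 and Ears2 varied least of the family. The Wars2 level was 4.16 in naive cells at 0 h, 4.08, 4.20 and 4.10 with ConA, PLL and ConA+PLL at 3 h, then 4.23, 4.15, 4.25 and 4.28 at 24 h, in the same order, a range of 0.20. The Ears2 level (glutamyl-tRNA) was 4.59 in naive cells at 0 h, 4.58, 4.52 and 4.52 at 3 h, and 4.68, 4.47, 4.50 and 4.59 at 24 h, a range of 0.22. Wars2, which charges mitochondrial tRNA with tryptophan, thus varied little across the arrays on which Wars spanned 1.54. Its mean level, 4.18, was the lowest of the family, and that of Ears2 was 4.56. At so low a signal a flat level does not show whether either gene responded.

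The other mitochondrial members lay between these. Of the 5 mitochondrial genes highest with ConA+PLL among the 0 h and 3 h arrays (Aars2, Sars2, Tars2, Vars2 and Yars2), Yars2 was the 1 past 1.5-fold against naive, ConA and PLL cells alike, at 5.66 with ConA+PLL against 5.06 in naive, 5.02 in ConA and 4.95 in PLL cells, and at 24 h it was 5.40 against 5.04, 5.20 and 5.16. Lars2 (leucyl-tRNA) was 0.42 below ConA on the ConA+PLL array at 3 h (a difference of -0.42) and 0.21 above it at 24 h. Hars2 was lowest of its 8 levels with ConA+PLL at 24 h, at 5.24.

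Enzymes for the same amino acid were then compared within 16 pairs, in which Eprs served both Ears2 and Pars2, and Fars2 served both Farsa and Farsb. For ConA+PLL minus ConA at 3 h the cytosolic difference exceeded the mitochondrial one in 13 of 16 pairs, with a median gap of 0.37. The exceptions were serine (-0.43), valine (-0.38) and tyrosine (-0.22). For ConA+PLL minus ConA at 24 h it did so in 13 of 16 pairs, with a median gap of 0.29, and the exceptions, cysteine, leucine and methionine, were all within 0.07 of zero. For ConA+PLL minus naive cells at 24 h it did so in 15 of 16, all but tyrosine (-0.08). For naive cells at 24 h minus 0 h it did so in 6 of 16, with a median gap of -0.38.

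**Figure D5:**
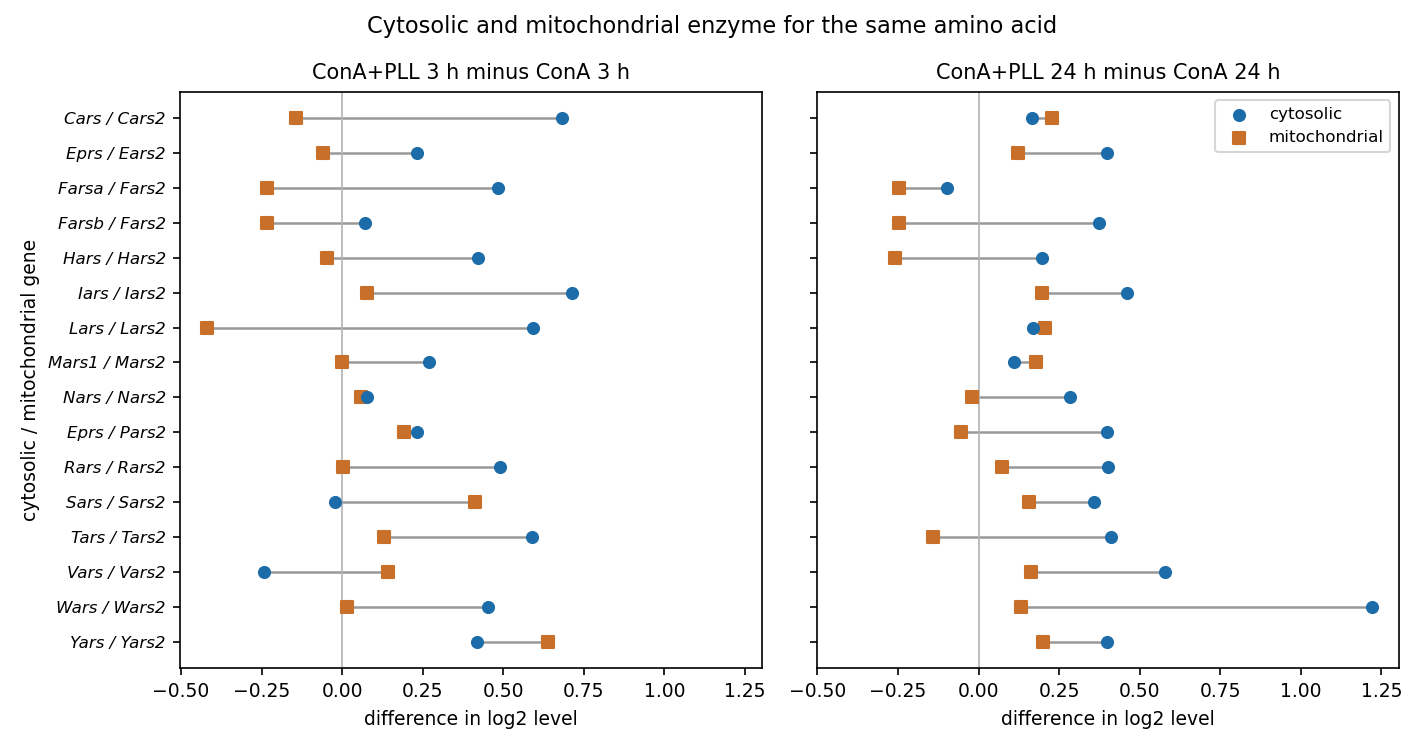
Difference in log2 level (horizontal axis) of ConA+PLL from ConA at 3 h (left) and 24 h (right) for the cytosolic (blue circles) and mitochondrial (orange squares) enzyme of each of 16 pairs (rows). The circle lies to the right of the square in 13 of 16 pairs in each panel, and the widest separation at 24 h is that of Wars and Wars2.

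The probe sets of the 2 groups differed in brightness. A mean level of at least 6 was reached by 15 of 18 cytosolic and 2 of 16 mitochondrial members (Iars2 and Tars2), and the brighter genes of the table as a whole had a median of 0.16 for ConA+PLL minus naive cells at 24 h, with 7.61% of them 1.5-fold higher. The 3 cytosolic members with mean levels from 5 to 6 (Cars, Farsa and Farsb) and the 8 mitochondrial members of that range had medians that differed by -0.01 for ConA+PLL minus ConA at 24 h and by 0.51 at 3 h. The part of signal level in the difference between the compartments was not tested further.

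Several cytosolic synthetases assemble with scaffold proteins into the multi-synthetase complex. The 7 measured members of it (Eprs, Iars, Kars, Lars, Mars1, Qars and Rars) and the 11 outside it had similar medians, 0.60 and 0.48 for ConA+PLL minus naive cells at 24 h and 0.29 and 0.42 for ConA+PLL minus ConA at 3 h. Every one of the 7 was higher with ConA+PLL than with ConA at both times, from 0.14 (Qars) to 0.71 (Iars) at 3 h and from 0.11 (Mars1) to 0.82 (Qars) at 24 h. Of the 11 outside the complex, 9 were higher at 3 h and 10 at 24 h, and of all genes 47.1% and 61.6% were. The scaffold gene Eef1e1 was at 6.96 in naive cells at 0 h, 7.42, 6.89 and 8.36 with ConA, PLL and ConA+PLL at 3 h, then 7.08, 7.01, 6.85 and 7.09 at 24 h, so it was high on the early ConA+PLL array alone. Aimp1, another scaffold gene, was 0.09 above ConA at 3 h and 0.47 above it at 24 h.

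The synthetases fall into class I and class II by the fold of their catalytic domain, and Eprs, which joins one of each, was left out of this split. The 9 class I cytosolic genes had a median of 0.65 and the 8 class II genes one of 0.46 for ConA+PLL minus naive cells at 24 h. For ConA+PLL minus ConA at 24 h the medians were 0.40 and 0.37.

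ATF4, a transcription factor made when amino acids run short, is known to induce several cytosolic synthetase genes through the C/EBP-ATF response element, and MYC binds the E-box CACGTG. RefSeq promoter windows (GRCm38.p6, 250 bases before to 50 after the annotated start, 300 in all) were matched for 25 members, 11 cytosolic and 14 mitochondrial, and searched on both strands. TGATGCAA occurred in 3 of 11 cytosolic genes (Iars, Tars and Yars) and 0 of 14 mitochondrial genes, and in 0.895% of all 32851 windows. The looser TGATGNAA, which includes every TGATGCAA match, occurred also in Gars, giving 4 of 11 cytosolic and 0 of 14 mitochondrial genes, and in 3.97% of all windows. CACGTG, which reads the same on both strands, occurred in Farsb, Iars and Tars (3 of 11), in Ears2 (1 of 14) and in 7.15% of all windows. Cars, Hars, Hars2, Lars, Nars, Pars2, Rars, Vars and Wars had no window in the table.

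The 4 windows with TGATGNAA are shown from 70 bases before to 30 after the start, on the strand of the gene, because they carry the match that no mitochondrial window held. Capitals mark the TGATGNAA match, written as TTGCATCA or TTTCATCA where it lies on the other strand, and CACGTG. The windows are Iars chr13:49682060-49682159 (+), Tars chr15:11399629-11399728 (-), Yars chr4:129189833-129189932 (+) and Gars chr6:55037931-55038030 (+).
Iars: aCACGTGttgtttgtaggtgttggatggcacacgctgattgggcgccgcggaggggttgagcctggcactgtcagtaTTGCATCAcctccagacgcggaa
Tars: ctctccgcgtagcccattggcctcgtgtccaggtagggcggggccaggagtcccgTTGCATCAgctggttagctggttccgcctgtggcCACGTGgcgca
Yars: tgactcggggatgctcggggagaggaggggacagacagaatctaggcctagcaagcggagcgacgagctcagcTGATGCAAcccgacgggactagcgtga
Gars: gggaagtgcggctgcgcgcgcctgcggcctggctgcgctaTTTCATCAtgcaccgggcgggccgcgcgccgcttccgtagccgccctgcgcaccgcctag

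The match began 8 bases after the start in Iars and 4 after it in Yars, and 15 bases before it in Tars (position -15) and 30 before it in Gars (position -30). For ConA+PLL minus ConA at 3 h these 4 genes were 0.42 to 0.71 higher (median 0.52), and the 7 other cytosolic genes with a window lay between -0.02 and 0.48 (median 0.23). At 24 h the medians were 0.41 and 0.37. A match of letters is a description of the window, and binding was not measured. Myc itself was at 7.15 in naive cells at 0 h, 8.40, 6.87 and 9.66 with ConA, PLL and ConA+PLL at 3 h, then 6.78, 6.83, 6.62 and 7.27 in the same order at 24 h.

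Genes of the ATF4 and amino acid response were mixed. Of 18 genes of that list passing the filter, 4 were 1.5-fold higher and 1 lower in ConA+PLL than in ConA at 3 h (median 0.23), where 3.54% and 5.5% of all genes were, and 8 were higher and 1 lower than in PLL (median 0.32), where 6.09% and 8.7% were. At 24 h, 3 were higher and 0 lower than in ConA (median 0.25), where 5.19% and 1.95% of all genes were, and 4 were higher and 0 lower than in PLL (median 0.02), where 6.58% and 2.21% were. Relative to ConA at 3 h, Slc7a5 (a transporter of large neutral amino acids) was 1.29 higher, Psat1 (an enzyme of serine synthesis) 1.25, Slc7a1 (a transporter of cationic amino acids) 1.04 and Atf3 0.75. Relative to ConA at 24 h, Psat1 was 1.66 higher, and Mthfd2 and Shmt2, enzymes of mitochondrial folate metabolism, were 0.99 and 0.90 higher. Atf4 itself, named after its values were seen, was at 8.02 in naive cells at 0 h, 8.03, 7.25 and 7.89 with ConA, PLL and ConA+PLL at 3 h, then 6.99, 7.07, 7.04 and 6.80 at 24 h. Asns, the asparagine synthetase and a common marker of this response, lay between 3.40 and 3.74 on all 8 arrays. These values lie around the filter limit of 3.62, and at so low a signal they do not show whether Asns responded.

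Other parts of the translation machinery were described in the same way. Against ConA, 3.54% of all genes were 1.5-fold higher with ConA+PLL at 3 h and 5.19% at 24 h, and 5.5% and 1.95% lower. Of 7 genes of cytosolic elongation, 1 was 1.5-fold higher with ConA+PLL than with ConA at 3 h and 1 at 24 h, in each case Eif5a (0.74 and 0.82), a factor that helps ribosomes past stalling sequences, and the medians were 0.01 and 0.31. Of 12 genes that partner the mitochondrial synthetases in translation, 1 was 1.5-fold higher at each time, with medians of -0.05 and 0.10: Gatc, a subunit of the amidotransferase that completes mitochondrial glutaminyl-tRNA, was 0.78 higher at 3 h, and Tufm, the mitochondrial elongation factor that carries charged tRNA, was 0.65 higher at 24 h. The Gatc level at 3 h was 5.09 with ConA, 5.96 with PLL and 5.87 with ConA+PLL, so it was not above PLL alone. Of 33 genes of tRNA maturation and export, 3 were 1.5-fold higher and 1 lower at 3 h (median 0.08), led by Rpp38 of ribonuclease P (0.97), and 3 were higher and 0 lower at 24 h (median 0.23), led by Mettl1, a tRNA methyltransferase (0.78). The 6 measured synthetase-like and editing genes were all lower with ConA+PLL than with ConA at 3 h, between -0.38 (Pstk, of selenocysteine synthesis) and -0.08, where 47.1% of all genes were higher. Of these 6 genes 0 were 1.5-fold lower at 3 h, and their median at 24 h was 0.04. The cytosolic synthetase medians in the same comparisons were 0.42 and 0.40.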

How the data were processed

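RNA was hybridised to Affymetrix Mouse Gene 2.0 ST arrays, 1 for each of 8 groups taken from the labels, and the 0 h time of the naive control from the series design. The authors normalized the arrays with RMA (robust multi-array average), and the deposited values were read as log2 levels per probe set, a base the table does not state. Not given in the sources used here were the software version, the genome build of the probe sets and the arrays normalized together. Gene names came from the platform's annotation, which gave 35 probe sets for the 34 members, and probe sets with several symbols were left out. No further scaling was applied. Differences were taken between 2 arrays, with no test, using Python 3.11.15, pandas 2.3.3 and numpy 2.4.6, and 8 arrays limit the precision. Members with the 6 (cytosolic) and 4 (mitochondrial) widest ranges, the 2 and 2 narrowest, and any 2-fold apart with ConA+PLL were described on all arrays, with Iars, Eprs and Yars2 added after their values were seen. Of each gene list, up to 4 genes with the largest difference were named. Members and lists were chosen with earlier results of these data known. Promoter windows came from RefSeq; protein sequences were not used here. The counting was tested on simulated data with shifts well past the 1.5-fold limit, which does not bear on differences close to it. Alternatives were another scaling, probe set rule, summary, fold, level range and control array.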

Additional observations from a re-analysis of the deposited data

Results flagged for a closer look

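Vars was listed because its difference between ConA+PLL and PLL ran in opposite directions at the 2 times, -0.43 at 3 h and 0.63 at 24 h. After centring of the arrays the 3 h difference was -0.32, and after quantile normalization it was -0.38. Each value compares 2 arrays, and the difference between the times was not tested.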

How the results depend on the processing

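No paired analysis was possible because each group holds 1 array. No library could be left out either, so the control array was replaced instead. The number of arrays limits the precision of every value, and a difference between 2 arrays holds culture, labelling and scanning differences that cannot be told apart from the agents. The gap below is the cytosolic median difference minus the mitochondrial one, on the log2 scale, and counts are of synthetases at least 1.5-fold higher. The share of all genes was not counted under another scaling, or for 24 h arrays against naive cells at 0 h. Those counts therefore do not show whether the members moved apart from the table as a whole. In the 6 comparisons of ConA+PLL with another array the gap stayed above 0 under every setting named here except 1. That was the members of mean level from 5 to 6 at 24 h against ConA. Centring shifts both groups alike and could not change a gap. At 3 h the replaced control repeats the comparison with PLL, so neither of these is a check on the gap. Where a value moved, the cause was not tested.

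With quantile normalization, the gap for ConA+PLL at 3 h was 0.24 over naive at 0 h, 0.24 over ConA and 0.31 over PLL, the mitochondrial median was 0.18 over naive and 0.10 over PLL, 2 cytosolic and 2 mitochondrial genes were counted over naive, and 2 cytosolic genes over ConA. Quantile normalization also gave 1 mitochondrial gene for PLL at 3 h, 0 cytosolic genes for ConA at 24 h and 1 cytosolic gene for naive at 24 h over 0 h. For ConA+PLL at 24 h it gave 3 cytosolic genes over naive, and over PLL a cytosolic median of 0.36, a gap of 0.18 and 3 cytosolic genes.

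With each array centred on its median, ConA+PLL at 3 h had 2 mitochondrial genes over naive, and over PLL a cytosolic median of 0.61, a mitochondrial median of 0.10 and 9 cytosolic genes. At 24 h, centring gave ConA+PLL cytosolic medians of 0.36 over naive, 0.27 over ConA and 0.36 over PLL, mitochondrial medians of -0.0039, 0.016 and -0.0077 in the same order, and 3 cytosolic genes over naive and 3 over PLL.

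With means over members in place of medians, the gap for ConA+PLL at 3 h was 0.27 over naive, 0.27 over ConA and 0.33 over PLL, with a mitochondrial mean of 0.095 over PLL. The gap of means was 0.091 for ConA at 24 h and -0.28 for naive at 24 h over 0 h.

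Among the 15 cytosolic and 2 mitochondrial members of mean level of at least 6, the mitochondrial median was 0.094 for PLL at 3 h (gap -0.18), 0.22 for ConA+PLL at 3 h over naive (gap 0.22), 0.13 over PLL (gap 0.35) and 0.25 for naive at 24 h over 0 h (gap -0.32). At 24 h the gap for ConA+PLL was 0.48 over naive and 0.38 over ConA, with a mitochondrial median of 0.027 over ConA. The 3 cytosolic and 8 mitochondrial members of mean level from 5 to 6 were compared after seeing the data. Among them the gap was 0.51 for ConA+PLL over ConA at 3 h, and the cytosolic median was 0.26 for ConA at 24 h (gap 0.13) and 0.12 for naive at 24 h over 0 h (gap 0.045). For ConA+PLL at 24 h they gave cytosolic medians of 0.40 over naive (gap 0.27), 0.16 over ConA (gap -0.0057) and 0.21 over PLL (gap 0.17).

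With PLL at 3 h in place of naive at 0 h as control, ConA+PLL at 3 h had a gap of 0.51 and 2 mitochondrial genes. These are the values of the comparison with PLL already given, and not a further check. With naive at 0 h in place of naive at 24 h, ConA at 24 h had a gap of -0.18 and 2 mitochondrial genes, and Hars turned from higher to lower, at -0.036. Against that control PLL at 24 h had medians of -0.19 (cytosolic) and 0.14 (mitochondrial), a gap of -0.33, and 1 cytosolic and 3 mitochondrial genes. ConA+PLL at 24 h had medians of 0.36 and 0.24, a gap of 0.12, and 5 cytosolic and 2 mitochondrial genes.

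At a limit of 2-fold, 0 cytosolic and 0 mitochondrial genes were counted for ConA+PLL at 3 h over naive, ConA or PLL, 0 cytosolic genes for ConA at 24 h and 0 mitochondrial genes for naive at 24 h over 0 h. For ConA+PLL at 24 h, 1 cytosolic gene, Wars, was counted over each of naive, ConA and PLL. Averaging all the array's entries for a gene moved no median or gap by more than 0.1 and no count by more than 1.5 times. Nars2 was the only member with 2 probe sets, so this setting could change no cytosolic value and is not a check on the others. Leaving out Gars and Kars, run for medians and gaps, moved none by more than 0.1.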
